A study of Arabidopsis thaliana with 18 samples.

Results

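Embryos with 8 cells were compared with embryos at the 2/4-cell stage to ask which transcripts of Arabidopsis thaliana, the thale cress, are new at the 8-cell stage. The comparison sets 3 libraries labelled 8-cell against 3 libraries labelled 2/4-cell, out of 18 libraries that cover 6 stages. Each library was made from mRNA of embryos picked out of the seed by hand, amplified from very small amounts of RNA and sequenced. Genes entered when they reached 1 TPM in at least 3 of these 6 libraries, which held for 16066 of 27564 genes in the table. TPM gives the abundance of a transcript relative to the others of its library, corrected for length. The labels give no genotype, accession line, treatment or age other than the stage, for any group, and do not say how many embryos went into a library or whether the suspensor was kept. They also do not say that replicates came from separate plants, so the spread behind the p values here may be technical. That spread is the one between libraries of a stage, pooled over all 18 libraries with 1 weight per stage. The mean variance of log2(TPM + 1) within a stage was 0.561 at 2/4-cell, 0.243 at 8-cell and 0.123 at heart.

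After the asymmetric division of the zygote, the apical cell gives rise to most of the embryo, while the basal cell forms the suspensor, a stalk that holds the embryo in the seed, and the founder of the root tip. At the 8-cell stage the apical part consists of an upper tier, from which the shoot and most of the cotyledons come, and a lower tier, from which the stem below the cotyledons and most of the root come. The outer layer, the protoderm, is cut off in the next round of divisions. Auxin acts in these cells by removing AUX/IAA repressors, which frees auxin response factors such as MONOPTEROS (MP) to switch on genes that include TMO5 and TMO3. HD-ZIP III transcription factors promote the identity of the shoot end and of vascular tissue, and small ZPR proteins bind and inhibit them. Cytokinin, which is made by LOG enzymes, induces type-A response regulators, which dampen the response to it.

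The identity of the embryos was checked with 9 listed early embryo genes. All 9 were at 1 TPM or more in every 8-cell library and 8 in every 2/4-cell library. The exception was PIN7, which was under 1 TPM in every 2/4-cell library. Values of WOX2 and LEC1 are given here. WOX2, a homeobox gene of the apical lineage, had 194, 146 and 159 TPM in the 8-cell libraries, against 149, 127 and 134 TPM in the 2/4-cell libraries. LEC1, a subunit of the NF-Y transcription factor that promotes embryo identity, had 452, 352 and 504 TPM in the 8-cell libraries, against 559, 273 and 341 TPM in the 2/4-cell libraries. The libraries overlapped for both genes. Libraries listed 15391 to 16024 genes at 1 TPM or more at 8-cell and 15417 to 16380 at 2/4-cell. Pearson's r of log2(TPM + 1) between libraries, over the 16066 genes, was 0.942 to 0.951 within 8-cell, 0.863 to 0.877 within 2/4-cell and 0.827 to 0.886 between the stages. The 2/4-cell libraries thus differed from each other about as much as from the 8-cell libraries, and the fit gave each stage its own weight, 0.822 at 8-cell and 0.347 at 2/4-cell.

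Pollen tube genes and many seed coat and photosynthesis genes fell at 8-cell, and the levels of transcripts of tissues around the embryo are given first because several of them move with the stage. All 10 pollen tube genes that passed the filter were lower at 8-cell, as were 8 of 15 seed coat genes and 6 of 14 photosynthesis genes, and none of these genes was higher (2.21% of the 16066 genes that passed the filter were lower). Of the 13 endosperm genes, 2 passed the filter and 0 were called. Of the 16 listed pollen tube genes, 10 were at 1 TPM or more in every 2/4-cell library and 1 in every 8-cell library. For seed coat genes these counts were 13 and 10 of 17, and for photosynthesis genes 13 and 8 of 18. The filter thus admitted pollen tube genes mainly through the 2/4-cell libraries, and some of the others, which partly fixes the shares called lower. The summed level of the 16 listed pollen tube genes was 7.6, 13.4 and 9.86 TPM in the 8-cell libraries, against 1409, 273 and 984 TPM in the 2/4-cell libraries. The 17 seed coat genes summed to 63.1, 91.5 and 121 TPM in the 8-cell libraries, against 493, 1168 and 1759 TPM in the 2/4-cell libraries. The 2/4-cell libraries did not rank alike in both lists: replicate 2 was lowest for pollen tube genes and replicate 1 for seed coat genes. The 18 photosynthesis genes summed to 48.1, 79.3 and 122 TPM at 8-cell and 119.5, 201 and 738 TPM at 2/4-cell, and the 13 endosperm genes to 16.2, 12.1 and 25.6 TPM at 8-cell and 53.3, 14.4 and 126 TPM at 2/4-cell. Listed at 0 in every 8-cell library were 2 pollen tube, 2 seed coat, 3 photosynthesis and 5 endosperm genes. Some of these genes are near-identical copies of each other, such as RALFL8 and RALFL9 or the LHCB1 genes, and how their shared reads were split is uncertain. In whole embryos, fewer cells of a type and less RNA per cell cannot be told apart. With the genes of these lists and organelle genes left out of the fit, 186 genes were called higher in place of 193. The part of these transcripts in other differences was not tested.

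**Figure D1:**
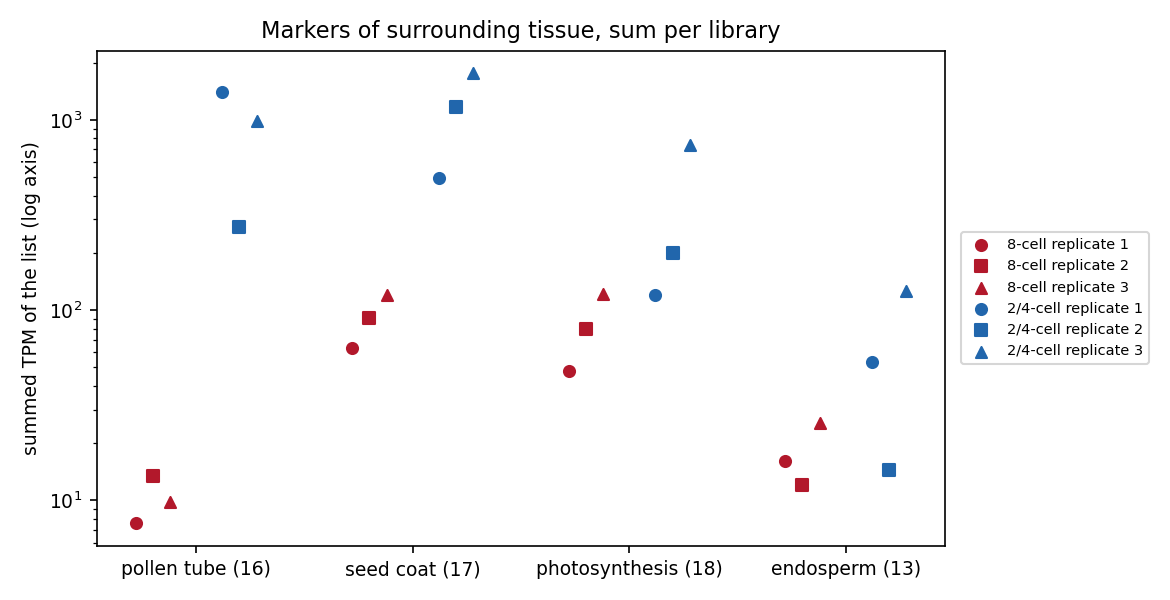
Summed TPM of 4 marker lists of tissues outside the embryo (number of listed genes in brackets), 1 point per library on a log axis. All 8-cell libraries lie below all 2/4-cell libraries for the pollen tube and seed coat lists, while the photosynthesis and endosperm lists overlap.

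Of the 18338 genes tested over the whole table, 193 (1.05%) were called higher and 360 (1.96%) lower at 8-cell (limma with Benjamini-Hochberg adjustment, adjusted p under 0.05). All 193 risers and 355 of the fallers were among the 16066 genes, where they made up 1.2% and 2.21%, and these shares are the background for every count of risers and fallers below. Of the risers, 185 differed at least 2-fold. Folds come from the fit to log2(TPM + 1), which understates the change of genes with low levels. The level at 2/4-cell was under 1 TPM on average for 54 of the risers and at 5 TPM or more for 75, so the set holds both transcripts that were hardly detected before and transcripts that were already there. The 8-cell mean was at 100 TPM or more for 16 of them. Values of the 3 libraries did not overlap between the stages for 1428 higher (8.89%) and 1555 lower genes (9.68%), so a lack of overlap alone was common. The median log2 difference was 0.03 over the 16066 genes. With only these 6 libraries in the fit, which leaves the spread of the other stages unused, 25 genes (0.136%) were called higher and 42 (0.229%) lower, of which 24 and 39 were also called in the fit to all stages. Among the risers described below, TMO5, AT5G02460, ZPR3, PHB, PLT1, ARR5, ARR7, IAA18, BEN1, CML11 and APT5 passed in that fit too. So did AT3G06160, AT1G15760, AT4G03645, AT1G23340, AT1G04880 and AT5G47440. The other risers described below did not pass in it. Of the fallers described below, SPL3, TCP2, BCP1, THI2.1, MLP423 and VSP1 passed. A fit with 1 weight per library called 235 (1.28%) higher and 357 (1.95%) lower, and a fit with equal weights called 691 (3.77%) and 917 (5%).

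**Figure D2:**
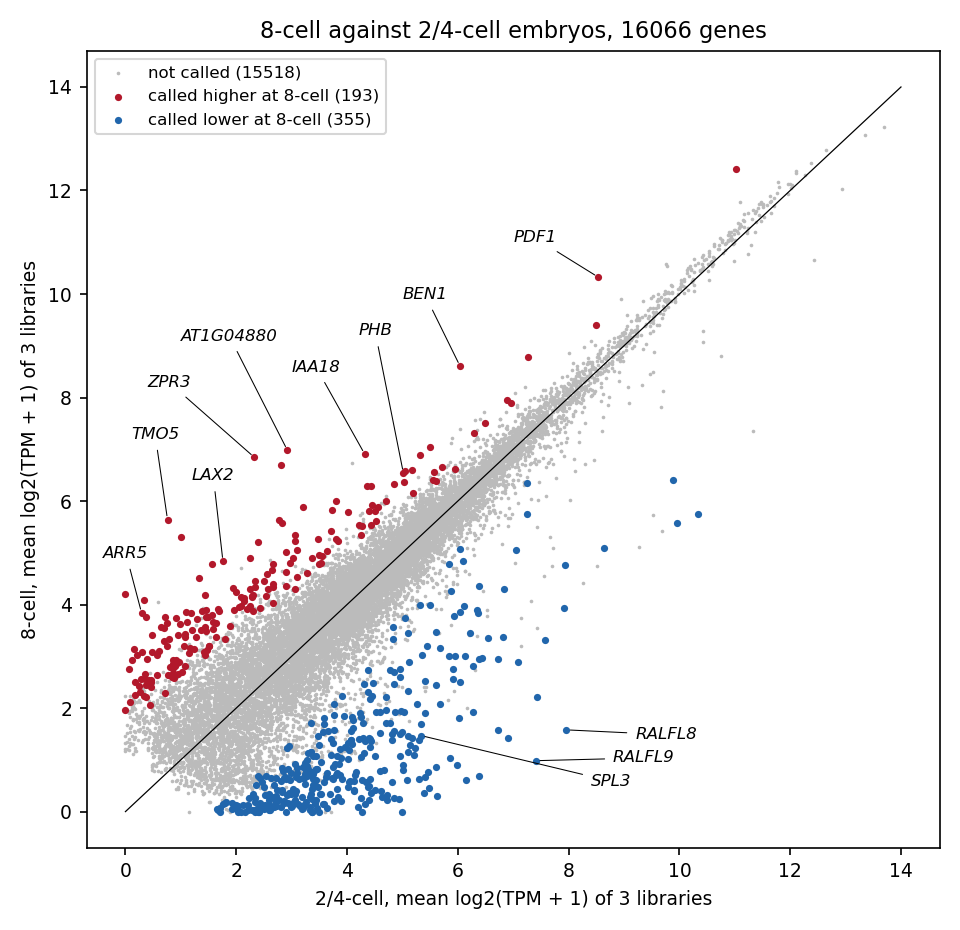
Mean log2(TPM + 1) of the 3 8-cell libraries (vertical) against that of the 3 2/4-cell libraries (horizontal) for 16066 genes, with 193 genes called higher in red, 355 called lower in blue and the others in grey. The line marks equal levels, and called genes leave it mostly from low and middle levels.

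A newly detected group was defined as genes under 1 TPM in every 2/4-cell library and at 5 TPM or more in every 8-cell library. It held 15 genes, and since they were picked on these values, their calls, 15 of 15 higher, add nothing. The annotation gives a symbol to 3 of them, TMO5, ARR5 and ARR7, a regulator of vascular identity and a pair of cytokinin response regulators. The others included AT5G02460, annotated as a Dof-type zinc finger protein, AT3G06160, annotated as an AP2/B3-like transcription factor, and AT1G15760, annotated as a protein with a sterile alpha motif. AT3G06160 had 10.2, 11.1 and 17 TPM in the 8-cell libraries, against 0.244, 0.517 and 0.128 TPM in the 2/4-cell libraries. AT1G15760 had 7.19, 12.6 and 9.93 TPM in the 8-cell libraries, against 0.269, 0.479 and 0.44 TPM in the 2/4-cell libraries. AT4G03645, an uncharacterized protein, had 32.2, 9.53 and 17.2 TPM in the 8-cell libraries, while the table lists it at 0 in every 2/4-cell library. These 3 genes were chosen after their values were seen. Of the 15 genes, 12 were at 1 TPM or more in each of the 12 libraries of the later stages, and 6 were at 5 TPM or more in each. Over the whole table, 13739 of 27564 genes were at 1 TPM or more in each of those libraries. The whole table includes genes listed at 0, while the 15 were picked at 5 TPM or more at 8-cell, so these shares have unlike bases. AT1G23340, annotated as a putative carboxyl-terminal proteinase, was lower at 16-cell and back near its 8-cell level at globular and heart, with 5.73 ± 0.299 TPM at 8-cell, 0.324 ± 0.561 TPM at 16-cell, 2.53 ± 1.42 TPM at 32-cell, 5.24 ± 0.288 TPM at globular and 5.1 ± 1.05 TPM at heart (SD, n = 3 each).

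The largest rise among genes with a symbol was in the pathway of MP. TMO5, a bHLH transcription factor that acts with LHW to start vascular tissue, had 59.2, 41.6 and 47.1 TPM in the 8-cell libraries, against 0.723, 0.598 and 0.764 TPM in the 2/4-cell libraries. It was 29.4-fold higher at 8-cell (log2 difference 4.88 ± 0.45 SE, limma adjusted p = 6.89e-06). The 2/4-cell values lie within a narrow band and all 8-cell values are far above it. Of the 22 genes listed for this pathway and for vascular tissue, 15 passed the expression filter, and 5 rose and none fell; their median log2 difference was 0.48, against 0.03 over all genes.

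The other 4 were AT5G02460, AT3G56770, TMO3 and ATHB8. AT5G02460 had 17.5, 21.4 and 10.9 TPM in the 8-cell libraries, against 0.234, 0.379 and 0.184 TPM in the 2/4-cell libraries, a 13.5-fold rise (log2 difference 3.75 ± 0.65 SE, limma adjusted p = 0.00217). AT3G56770, annotated as a bHLH protein, had 10.2, 13.1 and 14.3 TPM in the 8-cell libraries, against 0.326, 0.653 and 2.08 TPM in the 2/4-cell libraries, a 7.1-fold rise (log2 difference 2.83 ± 0.42 SE, limma adjusted p = 0.00069). TMO3, an AP2/ERF transcription factor and target of MP, had 21.6, 15.4 and 27.3 TPM in the 8-cell libraries, against 8.85, 2.67 and 2.54 TPM in the 2/4-cell libraries, a 4.34-fold rise (log2 difference 2.12 ± 0.39 SE, limma adjusted p = 0.00327). All 3 were higher in each 8-cell library than in any 2/4-cell library, with the smallest gap in TMO3. With only the stages compared in the fit, the limma adjusted p was 0.0678 for AT3G56770 and 0.148 for TMO3.

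Other genes of this pathway, namely MP, LHW, T5L1, IAA12 and LOG4, were already present and did not pass the test. MP had 109.8, 79.2 and 128 TPM in the 8-cell libraries, against 66.2, 103 and 59.5 TPM in the 2/4-cell libraries (log2 difference 0.48 ± 0.43 SE, limma adjusted p = 0.739). LHW, the partner of TMO5, had 40.0, 16.6 and 32.4 TPM in the 8-cell libraries, against 31.5, 28.3 and 24.8 TPM in the 2/4-cell libraries (log2 difference -0.01 ± 0.43 SE, limma adjusted p = 1). T5L1, the closest relative of TMO5, had 88.7, 75.1 and 67.7 TPM in the 8-cell libraries, against 58, 48.6 and 54 TPM in the 2/4-cell libraries (log2 difference 0.51 ± 0.37 SE, limma adjusted p = 0.629). T5L1 stood higher in every 8-cell library, but the difference was small against its error, while MP and LHW overlapped. IAA12, the AUX/IAA repressor of MP, had 56.1, 35 and 51.7 TPM in the 8-cell libraries, against 40.9, 30.3 and 64 TPM in the 2/4-cell libraries and also overlapped. LOG4, a cytokinin enzyme that TMO5 and LHW induce in the root, had 127, 70.1 and 61.1 TPM in the 8-cell libraries, against 63.5, 81.4 and 50.9 TPM in the 2/4-cell libraries (log2 difference 0.35 ± 0.38 SE, limma adjusted p = 0.812).

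**Figure D3:**
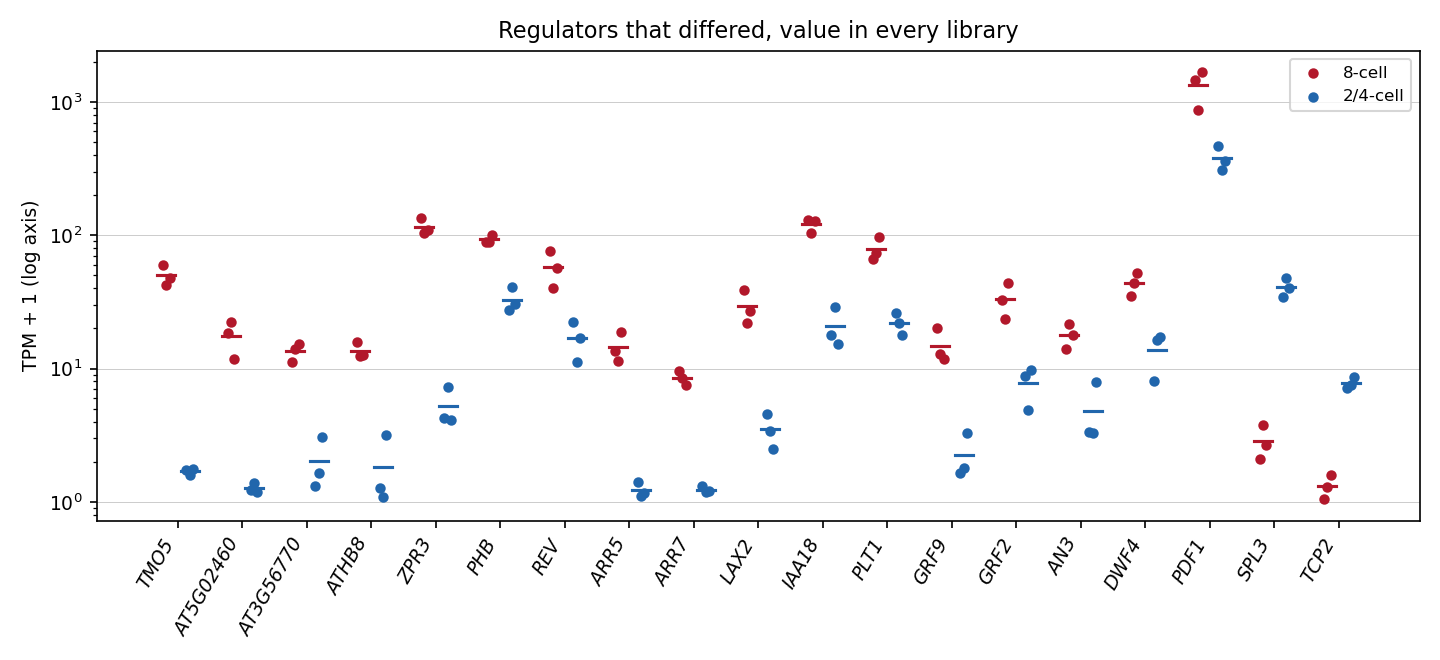
TPM + 1 on a log axis in each 8-cell library (red, left) and each 2/4-cell library (blue, right) for 19 called genes, mostly regulators, with lines at the mean of 3. In 17 genes all 8-cell points lie above all 2/4-cell points, and in SPL3 and TCP2 all lie below. The choice of called genes largely fixes this. Over all 16066 genes, 8.89% were higher and 9.68% lower without overlap.

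Several HD-ZIP III genes and their inhibitor ZPR3 rose. Of 9 listed genes, 8 are in the table, 7 passed the filter and 4 rose, with a median log2 difference of 1.52 over the 7. ZPR3, the inhibitor, had 134, 102 and 108 TPM in the 8-cell libraries, against 3.24, 6.28 and 3.09 TPM in the 2/4-cell libraries. It was 22.9-fold higher (log2 difference 4.52 ± 0.45 SE, limma adjusted p = 2.18e-05), and its lowest 8-cell value was many times its highest 2/4-cell value. ZPR2, a related inhibitor, ran the other way in every library, with 0.124, 0 and 0.245 TPM in the 8-cell libraries, against 2.63, 2.3 and 2.73 TPM in the 2/4-cell libraries, but did not pass the test (log2 difference -1.66 ± 0.62 SE, limma adjusted p = 0.194).

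Among the transcription factors, ATHB8, which marks cells that become vascular, was the one with the lowest level at 2/4-cell. ATHB8 had 14.9, 11.4 and 11.6 TPM in the 8-cell libraries, against 0.265, 0.0868 and 2.17 TPM in the 2/4-cell libraries, an 8.29-fold rise (log2 difference 3.05 ± 0.66 SE, limma adjusted p = 0.0114). This call depended on single libraries: without 2/4-cell replicate 1 the adjusted p was 0.0588 and without 2/4-cell replicate 2 it was 0.106. PHB had 88.4, 88.4 and 100.2 TPM in the 8-cell libraries, against 26.3, 39.8 and 29.5 TPM in the 2/4-cell libraries, a 2.88-fold rise (log2 difference 1.52 ± 0.29 SE, limma adjusted p = 0.00433). REV had 74.7, 38.9 and 55.5 TPM in the 8-cell libraries, against 21.2, 10.2 and 16 TPM in the 2/4-cell libraries, a 3.43-fold rise (log2 difference 1.78 ± 0.41 SE, limma adjusted p = 0.0189), and its adjusted p was 0.169 or 0.0782 when 2/4-cell replicate 2 or 3 was left out and 0.0778 or 0.053 when 8-cell replicate 1 or 3 was. PHB and REV were thus already expressed at 2/4-cell. The remaining members did not pass: CNA had 47.9, 36.5 and 47.8 TPM in the 8-cell libraries, against 22.4, 37.8 and 17.8 TPM in the 2/4-cell libraries (log2 difference 0.80 ± 0.37 SE, limma adjusted p = 0.352), and PHV had 6.56, 11.1 and 13.8 TPM in the 8-cell libraries, against 7.26, 10.4 and 14.8 TPM in the 2/4-cell libraries (log2 difference -0.05 ± 0.38 SE, limma adjusted p = 0.993). CNA overlapped through 2/4-cell replicate 2, and PHV values covered the same range at both stages.

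Type-A response regulators were the cytokinin genes that appeared. Of 48 listed cytokinin genes, 28 passed the filter, 3 rose and none fell, with a median log2 difference of 0.29. The risers were ARR5, ARR7 and TMO3, which is also a cytokinin response factor. ARR5 had 12.6, 10.4 and 17.8 TPM in the 8-cell libraries, against 0.414, 0.106 and 0.174 TPM in the 2/4-cell libraries, an 11.7-fold rise (log2 difference 3.54 ± 0.47 SE, limma adjusted p = 0.000256). ARR7 had 8.57, 7.51 and 6.51 TPM in the 8-cell libraries, against 0.312, 0.185 and 0.204 TPM in the 2/4-cell libraries, a 6.89-fold rise (log2 difference 2.78 ± 0.47 SE, limma adjusted p = 0.00189). All 2/4-cell values of both genes were under 1 TPM and all 8-cell values were above 5 TPM.

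Other genes of this class were already expressed. ARR15, a type-A regulator that auxin induces together with ARR7 in the basal lineage of the embryo, had 34.3, 32.4 and 20.6 TPM in the 8-cell libraries, against 42.1, 39.3 and 28.4 TPM in the 2/4-cell libraries (log2 difference -0.34 ± 0.48 SE, limma adjusted p = 0.875). ARR4 had 70.1, 40.4 and 58.9 TPM in the 8-cell libraries, against 40.3, 23.1 and 22.1 TPM in the 2/4-cell libraries (log2 difference 0.98 ± 0.42 SE, limma adjusted p = 0.298), and ARR3 had 20.1, 19.9 and 35.7 TPM in the 8-cell libraries, against 9.33, 11.5 and 5.51 TPM in the 2/4-cell libraries (log2 difference 1.42 ± 0.50 SE, limma adjusted p = 0.163). ARR3 and ARR4 were higher in every 8-cell library than in any 2/4-cell library without passing the test, and ARR15 overlapped. ARR12, a type-B transcription factor that carries out the response to cytokinin, had 19.5, 9.51 and 6.43 TPM in the 8-cell libraries, against 3.1, 4.34 and 1.46 TPM in the 2/4-cell libraries (log2 difference 1.63 ± 0.50 SE, limma adjusted p = 0.0907). Its 8-cell values were all above its 2/4-cell values, but they spread widely.

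Auxin genes mostly did not pass the test. Of 75 listed, 44 passed the filter, 4 rose and none fell, with a median log2 difference of 0.33. IAA18, an AUX/IAA repressor, had 129, 103 and 126 TPM in the 8-cell libraries, against 16.9, 27.9 and 14.4 TPM in the 2/4-cell libraries, a 6-fold rise (log2 difference 2.58 ± 0.27 SE, limma adjusted p = 2.67e-05). LAX2, an auxin influx carrier, had 37.8, 21 and 26.1 TPM in the 8-cell libraries, against 3.59, 2.41 and 1.49 TPM in the 2/4-cell libraries, an 8.41-fold rise (log2 difference 3.07 ± 0.35 SE, limma adjusted p = 5.64e-05). In both genes the lowest 8-cell value was several times the highest 2/4-cell value. With only the stages compared in the fit, LAX2 had a limma adjusted p of 0.0515. PIN7, an efflux carrier known from the suspensor at these stages, had 5.16, 2.74 and 6.91 TPM in the 8-cell libraries, against 0.124, 0.157 and 0.992 TPM in the 2/4-cell libraries, a 4.13-fold rise (log2 difference 2.05 ± 0.43 SE, limma adjusted p = 0.00989). Its adjusted p in limma was 0.0719 without 2/4-cell replicate 2. IAA26, another AUX/IAA gene, had 6.82, 2.43 and 7.08 TPM in the 8-cell libraries, against 0.93, 0.775 and 0.775 TPM in the 2/4-cell libraries (log2 difference 1.72 ± 0.44 SE, limma adjusted p = 0.0345). The stages did not overlap in PIN7 or IAA26, but the call of IAA26 was lost without 2/4-cell replicate 1 (adjusted p = 0.0786), 2 (0.146) or 3 (0.132) and without 8-cell replicate 1 (0.117) or 3 (0.116).

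IAA8, an abundant AUX/IAA gene, did not pass the test and had 328, 295 and 320.4 TPM in the 8-cell libraries, against 284, 399.5 and 257 TPM in the 2/4-cell libraries (log2 difference 0.03 ± 0.25 SE, limma adjusted p = 0.992). It overlapped between the stages. IAA30 was higher in every 8-cell library, with 234, 169.6 and 166 TPM in the 8-cell libraries, against 104, 67.2 and 67.5 TPM in the 2/4-cell libraries, and did not pass (log2 difference 1.26 ± 0.54 SE, limma adjusted p = 0.3). For auxin synthesis, TAA1 had 71.6, 42.1 and 49.5 TPM in the 8-cell libraries, against 47.6, 34.3 and 11.4 TPM in the 2/4-cell libraries (log2 difference 0.96 ± 0.38 SE, limma adjusted p = 0.242) and YUC4, the enzyme of the next step, had 59.9, 48.4 and 57.5 TPM in the 8-cell libraries, against 101, 100.3 and 97.3 TPM in the 2/4-cell libraries (log2 difference -0.84 ± 0.29 SE, limma adjusted p = 0.158). YUC4 was lower in every 8-cell library and TAA1 overlapped.

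A list of NPY genes and AGC kinases, which steer PIN carriers and organ formation, was added after the values were seen. Of 9 genes, 8 passed the filter, 3 rose and none fell, with a median log2 difference of 1.09. ENP, an NPY gene that acts with the kinase PID in forming cotyledons, had 132, 102 and 119.7 TPM in the 8-cell libraries, against 64.1, 29.9 and 30.0 TPM in the 2/4-cell libraries, a 2.98-fold rise (log2 difference 1.58 ± 0.37 SE, limma adjusted p = 0.0199). WAG1, a kinase, had 2.17, 5.98 and 3.97 TPM in the 8-cell libraries, against 0.175, 0.0787 and 0.129 TPM in the 2/4-cell libraries, a 4.25-fold rise (log2 difference 2.09 ± 0.49 SE, limma adjusted p = 0.0209). NPY5 had 35.5, 21.3 and 25.4 TPM in the 8-cell libraries, against 9.996, 17.2 and 6.6 TPM in the 2/4-cell libraries, a 2.42-fold rise (log2 difference 1.27 ± 0.34 SE, limma adjusted p = 0.0474). The libraries of the stages did not overlap in any of the 3, but each call was lost without several single libraries. The adjusted p of ENP was 0.158 and 0.142 without 2/4-cell replicate 2 and 3, and 0.0666 and 0.059 without 8-cell replicate 1 and 3. That of NPY5 was 0.123 and 0.301 without 2/4-cell replicate 1 and 3, and 0.166 and 0.0905 without 8-cell replicate 1 and 3. That of WAG1 was 0.0607, 0.11 and 0.0862 without 2/4-cell replicate 1, 2 and 3, and 0.0595 and 0.0569 without 8-cell replicate 2 and 3. PID, the best known kinase of this group, had 26, 25.3 and 29.4 TPM in the 8-cell libraries, against 30.2, 46.3 and 28.6 TPM in the 2/4-cell libraries and overlapped (log2 difference -0.34 ± 0.35 SE, limma adjusted p = 0.793).

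In the root list, 9 of 14 genes passed the filter, 1 rose and none fell, with a median log2 difference of 1.11. PLT1, an AP2 transcription factor that specifies root stem cells, had 65.5, 72.4 and 95.5 TPM in the 8-cell libraries, against 24.9, 21.1 and 16.8 TPM in the 2/4-cell libraries, a 3.59-fold rise (log2 difference 1.84 ± 0.42 SE, limma adjusted p = 0.017). The stages were well apart, but the adjusted p was 0.0885 or 0.115 when 2/4-cell replicate 2 or 3 was left out and 0.0704 when 8-cell replicate 3 was. Of its relatives, PLT2 and BBM were abundant at both stages and overlapped. PLT2 had 130.0, 53.2 and 64.4 TPM in the 8-cell libraries, against 246, 79.9 and 78.1 TPM in the 2/4-cell libraries (log2 difference -0.59 ± 0.51 SE, limma adjusted p = 0.726), and BBM had 168, 114 and 123 TPM in the 8-cell libraries, against 194, 115 and 97.9 TPM in the 2/4-cell libraries (log2 difference 0.04 ± 0.35 SE, limma adjusted p = 0.996).

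Other root regulators did not pass. SHR, which patterns the ground tissue, had 3.58, 1.81 and 3.17 TPM in the 8-cell libraries, against 0.366, 0.527 and 0.431 TPM in the 2/4-cell libraries (log2 difference 1.39 ± 0.52 SE, limma adjusted p = 0.201). WOX5, the homeobox gene of the later stem cell organizer, had 1.57, 4.06 and 4.69 TPM in the 8-cell libraries, against 0.179, 0.478 and 2.02 TPM in the 2/4-cell libraries (log2 difference 1.27 ± 0.43 SE, limma adjusted p = 0.143). SHR did not overlap between the stages, and WOX5 overlapped through 2/4-cell replicate 3. HAN, a GATA factor that sets the boundary between the embryo and the root pole, had 299, 134 and 177 TPM in the 8-cell libraries, against 224, 93.9 and 167 TPM in the 2/4-cell libraries (log2 difference 0.34 ± 0.37 SE, limma adjusted p = 0.812) and overlapped.

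AIL7, an AP2 gene related to PLT1, was the gene called higher in the shoot and cotyledon list, of which 9 of 23 genes passed the filter and none fell (median log2 difference 0.22). It had 30.5, 15.6 and 30.4 TPM in the 8-cell libraries, against 7.79, 1.33 and 11.1 TPM in the 2/4-cell libraries, a 4.05-fold rise (log2 difference 2.02 ± 0.47 SE, limma adjusted p = 0.0204), and its adjusted p was 0.243 without 2/4-cell replicate 2 and 0.0756 without 8-cell replicate 1 or 3. DRN, an AP2 gene of the apical domain, had 177, 107 and 121 TPM in the 8-cell libraries, against 145, 84.4 and 109.6 TPM in the 2/4-cell libraries (log2 difference 0.26 ± 0.53 SE, limma adjusted p = 0.924), and CUC2, a boundary gene of the cotyledons, had 2.62, 1.35 and 4.36 TPM in the 8-cell libraries, against 1.42, 1.22 and 0.872 TPM in the 2/4-cell libraries (log2 difference 0.73 ± 0.41 SE, limma adjusted p = 0.493). Both overlapped between the stages.

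Protoderm genes were partly in place at 2/4-cell. All 21 listed genes passed the filter, 4 rose and none fell, with a median log2 difference of 0.41. PDF1, an abundant transcript of the outer layer, had 1451, 869 and 1670.0 TPM in the 8-cell libraries, against 466, 305 and 357 TPM in the 2/4-cell libraries, a 3.45-fold rise (log2 difference 1.79 ± 0.34 SE, limma adjusted p = 0.00473), with an adjusted p of 0.0545 without 2/4-cell replicate 2. AT5G01075, annotated as a glycosyl hydrolase, had 18.6, 17.3 and 17.5 TPM in the 8-cell libraries, against 1.37, 9.39 and 1.57 TPM in the 2/4-cell libraries, a 4.72-fold rise (log2 difference 2.24 ± 0.40 SE, limma adjusted p = 0.0025). The stages did not overlap in either gene, and 2/4-cell replicate 2 stood above the other 2/4-cell libraries in AT5G01075. With only the stages compared in the fit, the limma adjusted p was 0.202 for AT5G01075 and 0.0616 for PDF1.

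PDF2, an HD-ZIP IV regulator of the epidermis, had 78.1, 53.2 and 59.8 TPM in the 8-cell libraries, against 20.9, 29.1 and 26.4 TPM in the 2/4-cell libraries, a 2.44-fold rise (log2 difference 1.28 ± 0.35 SE, limma adjusted p = 0.0485). Its adjusted p was 0.166, 0.134 and 0.151 without 2/4-cell replicate 1, 2 and 3, and 0.161 and 0.0976 without 8-cell replicate 1 and 3. LACS2, an acyl-CoA synthetase of cutin formation, had 35.6, 13.1 and 28.3 TPM in the 8-cell libraries, against 1.9, 10.3 and 11.7 TPM in the 2/4-cell libraries, a 3.31-fold rise (log2 difference 1.73 ± 0.45 SE, limma adjusted p = 0.0366). Its adjusted p was 0.247 and 0.0591 without 2/4-cell replicate 1 and 2, and 0.138 and 0.108 without 8-cell replicate 1 and 3. ATML1, the partner of PDF2, had 99.9, 79.9 and 94.2 TPM in the 8-cell libraries, against 106, 64.3 and 96 TPM in the 2/4-cell libraries and overlapped (log2 difference 0.06 ± 0.32 SE, limma adjusted p = 0.981). ACR4, a receptor kinase of the outer layer, had 6.21, 6.19 and 3.98 TPM in the 8-cell libraries, against 2.28, 1.15 and 1.88 TPM in the 2/4-cell libraries, higher in every 8-cell library but short of the threshold (log2 difference 1.22 ± 0.37 SE, limma adjusted p = 0.0919). LTP1, a lipid transfer protein, ran the other way with 15.9, 22.3 and 32.1 TPM in the 8-cell libraries, against 79.4, 337 and 242 TPM in the 2/4-cell libraries (log2 difference -2.99 ± 0.92 SE, limma adjusted p = 0.0948). LTP1 was lower in every 8-cell library than in any 2/4-cell library.

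**Figure D4:**
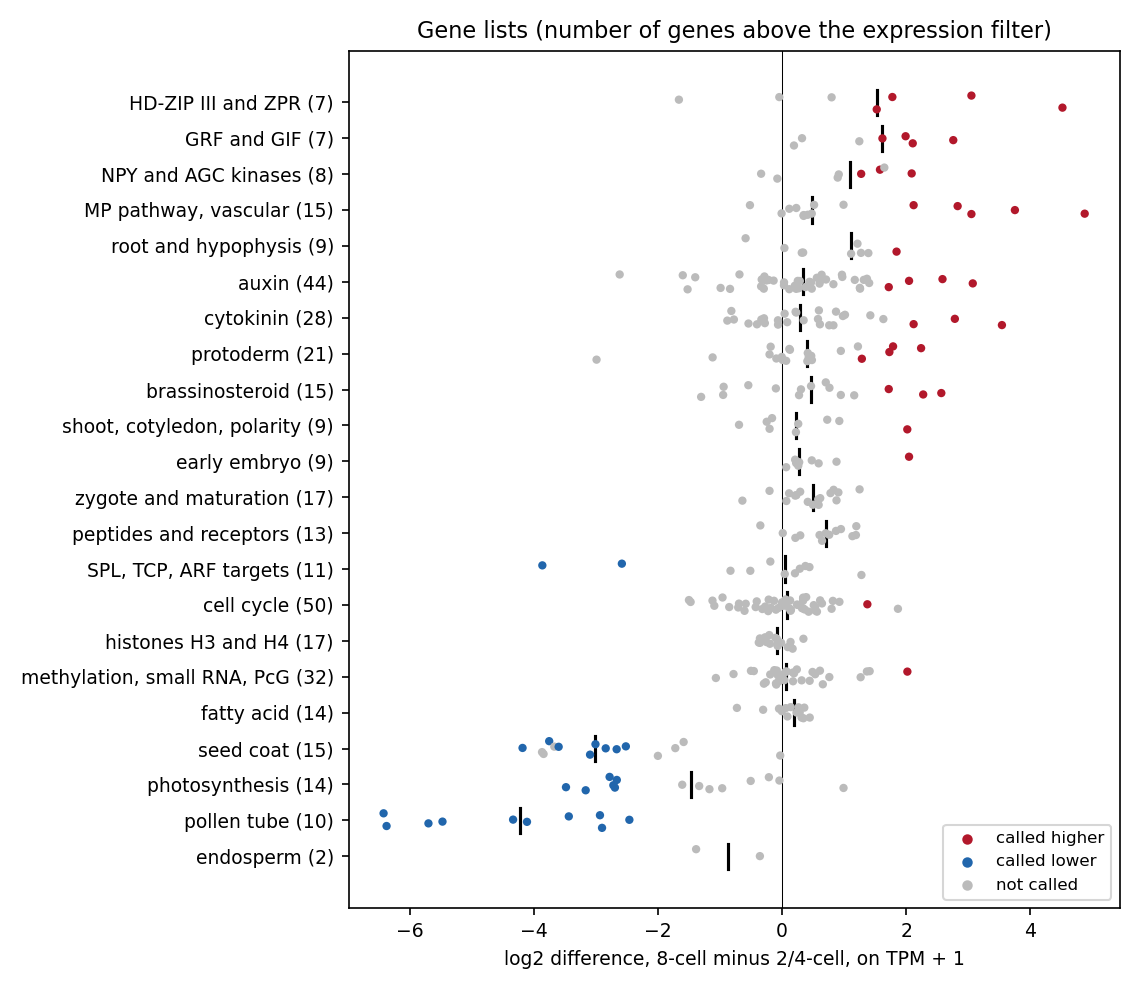
Log2 difference, 8-cell minus 2/4-cell, of each gene that passed the filter in 22 lists (number in brackets), red where called higher, blue where called lower and grey otherwise, with a black bar at the list's median. Red points lie mainly in the regulator and hormone lists, and blue points in the pollen tube, seed coat and photosynthesis lists besides SPL3 and TCP2.

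Among GRF transcription factors and their GIF partners, 4 of the 7 genes above the filter rose. These proteins form complexes that keep cells of young organs dividing. Their list of 12 genes was added after the values were seen, and none of the genes fell, with a median log2 difference of 1.62. GRF9 had 19, 11.9 and 10.7 TPM in the 8-cell libraries, against 0.654, 0.808 and 2.27 TPM in the 2/4-cell libraries, a 6.77-fold rise (log2 difference 2.76 ± 0.34 SE, limma adjusted p = 0.000146). GRF2 had 31.6, 22.4 and 42.6 TPM in the 8-cell libraries, against 7.83, 3.89 and 8.69 TPM in the 2/4-cell libraries, a 4.3-fold rise (log2 difference 2.105 ± 0.29 SE, limma adjusted p = 0.000466). AN3, also called GIF1, had 12.9, 20.5 and 16.9 TPM in the 8-cell libraries, against 2.33, 2.26 and 6.86 TPM in the 2/4-cell libraries, a 3.97-fold rise (log2 difference 1.99 ± 0.31 SE, limma adjusted p = 0.00102). In each of them the stages did not overlap, and the call held without each of the 6 libraries in turn, but with only the stages compared in the fit the adjusted p was 0.0695 for GRF9, 0.0853 for GRF2 and 0.148 for AN3.

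GRF3, with 17.8, 16.8 and 16.1 TPM in the 8-cell libraries, against 4.43, 3.17 and 7.73 TPM in the 2/4-cell libraries, rose 3.07-fold (log2 difference 1.62 ± 0.32 SE, limma adjusted p = 0.00618), and its adjusted p was 0.0728 without 2/4-cell replicate 2. GIF2 was abundant and did not pass, with 246, 236 and 226 TPM in the 8-cell libraries, against 221, 185 and 165 TPM in the 2/4-cell libraries (log2 difference 0.32 ± 0.18 SE, limma adjusted p = 0.489). GRF1, with 10.5, 6.32 and 15.7 TPM in the 8-cell libraries, against 3.63, 2.11 and 6.34 TPM in the 2/4-cell libraries, did not pass (log2 difference 1.24 ± 0.43 SE, limma adjusted p = 0.146). The stages did not overlap in GRF3 and GIF2, and they overlapped in GRF1 by a small margin.

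Brassinosteroid genes that rose act both in making and in inactivating the hormone. A list of 19 genes, added after the values were seen, held 15 above the filter, of which 3 rose and none fell, with a median log2 difference of 0.47. DWF4, which catalyses a rate-limiting step of synthesis, had 33.9, 43 and 51 TPM in the 8-cell libraries, against 7, 15.3 and 16.2 TPM in the 2/4-cell libraries, a 3.29-fold rise (log2 difference 1.72 ± 0.28 SE, limma adjusted p = 0.00137). BR6OX2, which makes the active hormone, had 15.5, 8.12 and 15.6 TPM in the 8-cell libraries, against 0.679, 0.457 and 8.04 TPM in the 2/4-cell libraries, a 4.83-fold rise (log2 difference 2.27 ± 0.48 SE, limma adjusted p = 0.0103), with an adjusted p of 0.0716 without 2/4-cell replicate 1 and 0.122 without 2/4-cell replicate 2. BEN1, which inactivates the hormone, had 509, 298 and 387 TPM in the 8-cell libraries, against 64.2, 55.4 and 76.5 TPM in the 2/4-cell libraries, a 5.92-fold rise (log2 difference 2.57 ± 0.36 SE, limma adjusted p = 0.00052). The stages were well apart in DWF4 and BEN1, and nearly touched in BR6OX2 through 2/4-cell replicate 3. With only the stages compared in the fit, the limma adjusted p was 0.106 for DWF4 and 0.289 for BR6OX2.

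Other genes of the pathway did not pass. For synthesis, DWF1 had 8.17, 8.96 and 11.7 TPM in the 8-cell libraries, against 17.1, 25.5 and 16.3 TPM in the 2/4-cell libraries (log2 difference -0.94 ± 0.41 SE, limma adjusted p = 0.306), and CPD had 10.7, 9.16 and 10.9 TPM in the 8-cell libraries, against 1.33, 8.02 and 12.8 TPM in the 2/4-cell libraries (log2 difference 0.76 ± 0.55 SE, limma adjusted p = 0.634). The receptor gene BRI1 had 2.55, 3.63 and 6.53 TPM in the 8-cell libraries, against 0.763, 4.92 and 1.75 TPM in the 2/4-cell libraries (log2 difference 0.70 ± 0.52 SE, limma adjusted p = 0.655). The libraries overlapped between the stages in CPD and BRI1 but not in DWF1, which was lower in every 8-cell library.

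Further risers with large fold changes came from several families. CML11, a calmodulin-like calcium sensor, had 40.2, 41.7 and 34 TPM in the 8-cell libraries, against 2.3, 0.99 and 0.224 TPM in the 2/4-cell libraries, a 19.7-fold rise (log2 difference 4.30 ± 0.63 SE, limma adjusted p = 0.000675). APT5, an adenine phosphoribosyltransferase, had 61.2, 48.8 and 66.8 TPM in the 8-cell libraries, against 6.29, 7.43 and 11.7 TPM in the 2/4-cell libraries, a 6.47-fold rise (log2 difference 2.69 ± 0.25 SE, limma adjusted p = 6.89e-06). LRP1, of the SHI/STY family and known from lateral root primordia, had 35.4, 22.5 and 29.8 TPM in the 8-cell libraries, against 1.96, 8.27 and 2.86 TPM in the 2/4-cell libraries, a 6.29-fold rise (log2 difference 2.65 ± 0.33 SE, limma adjusted p = 0.000129). The rule that named these genes asked for no overlap between the stages, so their lack of overlap adds nothing. The calls of all 3 held without each library in turn. With only the stages compared in the fit, LRP1 had a limma adjusted p of 0.0853.

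HB24, a zinc finger homeodomain protein, had 14.1, 13.1 and 8.56 TPM in the 8-cell libraries, against 2.73, 1.18 and 0.259 TPM in the 2/4-cell libraries, a 5.84-fold rise (log2 difference 2.55 ± 0.44 SE, limma adjusted p = 0.00203). PAN, a bZIP factor known from the control of flower organ number, had 13.9, 12.4 and 15.5 TPM in the 8-cell libraries, against 2.33, 2.17 and 0.917 TPM in the 2/4-cell libraries, a 5.46-fold rise (log2 difference 2.45 ± 0.27 SE, limma adjusted p = 4.31e-05). IQD20, a calmodulin-binding protein, had 13.1, 20.2 and 9.61 TPM in the 8-cell libraries, against 0.976, 2.43 and 1.6 TPM in the 2/4-cell libraries, a 5.64-fold rise (log2 difference 2.50 ± 0.44 SE, limma adjusted p = 0.00251). HB24, PAN and IQD20 were named by the same rule, which asked for no overlap. They kept their calls without each library in turn. With only the stages compared in the fit, the limma adjusted p was 0.103 for HB24, 0.0695 for PAN and 0.0785 for IQD20. RGF8, a precursor of root growth peptides, had 28.2, 40.9 and 54.6 TPM in the 8-cell libraries, against 6.98, 3.15 and 16.5 TPM in the 2/4-cell libraries, a 4.89-fold rise (log2 difference 2.29 ± 0.50 SE, limma adjusted p = 0.0116), with an adjusted p of 0.145 without 2/4-cell replicate 2 and 0.0524 without 8-cell replicate 3.

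Of the 193 risers, 111 carry no symbol in the annotation used. AT1G04880, annotated as an HMG box protein with an ARID domain, had 132, 103 and 144 TPM in the 8-cell libraries, against 8.8, 5.02 and 6.4 TPM in the 2/4-cell libraries, a 16.7-fold rise (log2 difference 4.06 ± 0.29 SE, limma adjusted p = 2.84e-07). AT5G47440, annotated as an auxin canalization protein, had 43.9, 30.1 and 35.9 TPM in the 8-cell libraries, against 3.16, 5.83 and 4.01 TPM in the 2/4-cell libraries, a 7.13-fold rise (log2 difference 2.83 ± 0.40 SE, limma adjusted p = 0.000517). AT3G24250, annotated as a glycine-rich protein, was far more abundant, with 4615, 5109 and 6825 TPM in the 8-cell libraries, against 2880.2, 1638 and 1876 TPM in the 2/4-cell libraries, a 2.63-fold rise (log2 difference 1.39 ± 0.28 SE, limma adjusted p = 0.00717). These 3 genes were chosen after their values were seen, and none overlapped between the stages. AT3G24250 did not pass when 2/4-cell replicate 2 (adjusted p = 0.0936) or 3 (0.0642) was left out or under median-ratio scaling (0.093).

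Signalling genes outside the lists, also chosen after their values were seen, rose as well. MAKR5, a membrane-associated kinase regulator that amplifies CLE peptide signalling in the root, had 10.5, 6.71 and 12.5 TPM in the 8-cell libraries, against 0.531, 1.9 and 0.637 TPM in the 2/4-cell libraries, a 5.48-fold rise (log2 difference 2.45 ± 0.40 SE, limma adjusted p = 0.00123). BRX, a regulator of protophloem in the root, had 52.4, 26.8 and 34.4 TPM in the 8-cell libraries, against 4.78, 5.03 and 16 TPM in the 2/4-cell libraries, a 4.46-fold rise (log2 difference 2.16 ± 0.43 SE, limma adjusted p = 0.00605), with an adjusted p of 0.0664 without 2/4-cell replicate 2. AT5G10310, annotated as an EPIDERMAL PATTERNING FACTOR-like peptide, had 13.7, 18.7 and 26.1 TPM in the 8-cell libraries, against 2.9, 4.29 and 1.73 TPM in the 2/4-cell libraries, a 5.18-fold rise (log2 difference 2.37 ± 0.40 SE, limma adjusted p = 0.00165). All 3 were higher in each 8-cell library than in any 2/4-cell library. With only the stages compared in the fit, the limma adjusted p was 0.0799 for MAKR5, 0.133 for BRX and 0.0814 for AT5G10310. Of 17 listed peptide and receptor genes, 13 passed the filter and 0 were called, where 1.2% of all genes above the filter rose. Their median log2 difference was 0.70, against 0.03 over the 16066 genes. Of the 13 differences, 12 were above 0, a count with no share over all genes beside it. This count was 28 of 50 for cell cycle genes and 5 of 17 for histone genes. Over all genes, 2424 had an unadjusted p under 0.05 in limma. ERL2, a receptor kinase of the ERECTA family, had 124, 77.4 and 70.5 TPM in the 8-cell libraries, against 36.7, 31.4 and 47.5 TPM in the 2/4-cell libraries, higher in every 8-cell library but short of the threshold (log2 difference 1.19 ± 0.35 SE, limma adjusted p = 0.0762).

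Regulators of early embryo identity, maturation, division and chromatin were mostly not called, as were most genes tested, so this sets them apart from no other genes. All 9 early embryo genes passed the filter, and 1, PIN7, rose (median log2 difference 0.27). Among 23 zygote and maturation genes, 17 passed the filter and 0 were called (median 0.50). Of the 17 differences, 15 were above 0, again with no share over all genes beside the count. WOX8 and WOX9, homeobox genes of the basal lineage, were among the genes not called: WOX8 had 31.9, 29.8 and 73.1 TPM in the 8-cell libraries, against 37, 26.4 and 20.3 TPM in the 2/4-cell libraries (log2 difference 0.59 ± 0.65 SE, limma adjusted p = 0.814), and WOX9 had 73.7, 85.4 and 159.6 TPM in the 8-cell libraries, against 82.3, 54.4 and 35.4 TPM in the 2/4-cell libraries (log2 difference 0.88 ± 0.54 SE, limma adjusted p = 0.548). Both overlapped between the stages, with 8-cell replicate 3 highest. LEC2, which promotes maturation, had 114, 89.4 and 75.2 TPM in the 8-cell libraries, against 104, 64.1 and 71.2 TPM in the 2/4-cell libraries and overlapped as well (log2 difference 0.23 ± 0.30 SE, limma adjusted p = 0.857).

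Of 53 cell cycle genes 50 passed the filter, 1 rose and none fell, with a median log2 difference of 0.09. The riser was CYCD3;1, a D-type cyclin of dividing cells, with 12.8, 22.7 and 12.5 TPM in the 8-cell libraries, against 5.52, 9.33 and 2.77 TPM in the 2/4-cell libraries, a 2.59-fold rise (log2 difference 1.37 ± 0.33 SE, limma adjusted p = 0.0244). It did not pass when 2/4-cell replicate 1 (adjusted p = 0.0665) or 3 (0.224) or 8-cell replicate 2 (0.064) was left out. CYCD3;2, its more abundant relative, had 351, 388 and 411 TPM in the 8-cell libraries, against 294, 340.0 and 418 TPM in the 2/4-cell libraries and overlapped (log2 difference 0.14 ± 0.21 SE, limma adjusted p = 0.884). None of 17 histone H3 and H4 genes was called, with a median of -0.09.

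Of 36 genes of DNA methylation, small RNAs and Polycomb, 32 passed the filter, 1 rose and none fell, with a median of 0.06. DCL3, which makes the small RNAs that guide DNA methylation, had 12.2, 12.3 and 10.3 TPM in the 8-cell libraries, against 4.66, 2.16 and 0.67 TPM in the 2/4-cell libraries, a 4.05-fold rise (log2 difference 2.02 ± 0.51 SE, limma adjusted p = 0.0319). Its adjusted p was 0.131 and 0.238 without 2/4-cell replicate 2 and 3, and 0.0823, 0.058 and 0.0661 without 8-cell replicate 1, 2 and 3. CMT3, a DNA methyltransferase, had 205, 143 and 159.9 TPM in the 8-cell libraries, against 272, 195 and 229 TPM in the 2/4-cell libraries (log2 difference -0.46 ± 0.35 SE, limma adjusted p = 0.668), and AGO4, which binds these small RNAs, had 271, 153 and 183 TPM in the 8-cell libraries, against 250.2, 133 and 139 TPM in the 2/4-cell libraries (log2 difference 0.24 ± 0.42 SE, limma adjusted p = 0.905). Both overlapped between the stages. Of 15 fatty acid genes 14 passed the filter and 0 were called, with a median of 0.19.

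Few listed regulators fell. In the list of SPL, TCP and ARF genes, which are targets of microRNAs, 11 of 21 genes passed the filter, 2 fell and none rose, with a median log2 difference of 0.04. SPL3, a target of miR156, had 1.12, 2.76 and 1.67 TPM in the 8-cell libraries, against 33.5, 46.9 and 38.9 TPM in the 2/4-cell libraries, 14.6-fold lower at 8-cell (log2 difference -3.87 ± 0.59 SE, limma adjusted p = 0.000853). TCP2, a target of miR319, had 0.0441, 0.287 and 0.592 TPM in the 8-cell libraries, against 6.18, 6.5 and 7.57 TPM in the 2/4-cell libraries, 6-fold lower at 8-cell (log2 difference -2.58 ± 0.54 SE, limma adjusted p = 0.00941). The 2/4-cell values of both genes were alike and all 8-cell values were far below them, and the call of TCP2 had an adjusted p of 0.0542 without 2/4-cell replicate 2 and 0.0623 without 2/4-cell replicate 3. SPL10 and SPL11, other targets of miR156, did not pass: SPL10 had 3.2, 5.84 and 2.77 TPM in the 8-cell libraries, against 3.37, 11.7 and 10.01 TPM in the 2/4-cell libraries (log2 difference -0.83 ± 0.70 SE, limma adjusted p = 0.716), and SPL11 had 3.28, 0.59 and 2.28 TPM in the 8-cell libraries, against 2.2, 0.352 and 2.36 TPM in the 2/4-cell libraries (log2 difference 0.21 ± 0.62 SE, limma adjusted p = 0.959). Both overlapped between the stages. For TCP4, a further target of miR319, the values of 4.15, 4.18 and 7.14 TPM in the 8-cell libraries, against 9.41, 4.55 and 9.94 TPM in the 2/4-cell libraries overlapped too (log2 difference -0.51 ± 0.52 SE, limma adjusted p = 0.786).

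The largest falls outside the marker lists did not share a lowest 2/4-cell library. TPX2, a thioredoxin-dependent peroxidase, had 2.94, 4.71 and 3.41 TPM in the 8-cell libraries, against 409.5, 51.9 and 236 TPM in the 2/4-cell libraries (log2 difference -5.22 ± 1.08 SE, limma adjusted p = 0.00813). BCP1, annotated as a homolog of a Brassica pollen protein, had 0.497, 0 and 0.407 TPM in the 8-cell libraries, against 60.3, 20.8 and 53.4 TPM in the 2/4-cell libraries (log2 difference -5.03 ± 0.54 SE, limma adjusted p = 4.31e-05). In both, 2/4-cell replicate 2 was lowest, and this also held for sks13, PGA4, a polygalacturonase, and ACA3, a carbonic anhydrase. THI2.1, an antimicrobial thionin, had 31.9, 49.6 and 63.1 TPM in the 8-cell libraries, against 462, 1533 and 1369 TPM in the 2/4-cell libraries (log2 difference -4.39 ± 0.90 SE, limma adjusted p = 0.00801). MLP423 had 6.2, 9.8 and 11.7 TPM in the 8-cell libraries, against 91.9, 279 and 267 TPM in the 2/4-cell libraries (log2 difference -4.26 ± 0.99 SE, limma adjusted p = 0.0189). In these genes 2/4-cell replicate 1 was lowest. The call of TPX2 was lost without 2/4-cell replicate 1 (adjusted p = 0.0611) or 3 (0.0651), that of THI2.1 without 2/4-cell replicate 2 (0.0797) or 3 (0.0677), and that of MLP423 without 2/4-cell replicate 2 (0.134) or 3 (0.116) or 8-cell replicate 1 (0.0636). VSP1, a vegetative storage protein, had 0.0874, 0.267 and 1.41 TPM in the 8-cell libraries, against 24.3, 39.2 and 20.9 TPM in the 2/4-cell libraries (log2 difference -4.24 ± 0.49 SE, limma adjusted p = 6.69e-05) and was lowest in replicate 3. The summed pollen tube genes were lowest in 2/4-cell replicate 2 and the summed seed coat genes in replicate 1, so a gene can share its lowest library with 1 of these lists by chance, and the part of surrounding tissue in these falls was not tested.

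The mirror image of the newly detected group, genes at 5 TPM or more in every 2/4-cell library and under 1 TPM in every 8-cell library, held 42 genes, of which 39 were called lower, a count that the choice on these values largely fixes. Of the 42, 2 were in a marker list of surrounding tissue. These lists are short and leave out BCP1, the pollen protein homolog, which is among the 42. The count thus does not give how many of the 42 come from surrounding tissue. Of the 42, 14 stayed under 1 TPM in all 12 later libraries, with no share over all genes to set beside it. By stage means, 320 of the 360 fallers were highest at 2/4-cell over the 6 stages, a count that their choice for a high 2/4-cell level partly fixes.

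The risers took several courses after the 8-cell stage, given here as stage means with no test. Of the 193, 26 had their highest mean at the 8-cell stage itself. The maximum lay in 16-cell embryos for 22 and in 32-cell embryos for 21, while 50 and 74 had theirs in globular and heart embryos. Risers were chosen for a higher level at 8-cell than at 2/4-cell, and no share over all genes stands beside these counts. TMO5 kept its level, with 49.3 ± 9.01 TPM at 8-cell and 36.1 ± 4.27 TPM at heart. ATHB8 was highest at 8-cell, with 12.6 ± 1.98 TPM there and 3.36 ± 1.19 TPM at 16-cell. BEN1 had 398 ± 106 TPM at 8-cell, 119 ± 50.2 TPM at 16-cell and 44.2 ± 4.25 TPM at heart. ATHB8 and BEN1 thus peaked and dropped again.

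ARR5 had 13.6 ± 3.81 TPM at 8-cell, 13 ± 0.882 TPM at 16-cell and 1.38 ± 0.555 TPM at globular. AT5G02460 had 27.4 ± 12.5 TPM at 16-cell, above its 8-cell mean of 16.6 ± 5.33 TPM, and 1.9 ± 0.796 TPM at heart. AN3 had 16.8 ± 3.78 TPM at 8-cell and 375 ± 49.4 TPM at heart, so that its 8-cell level was the start of a longer climb (SD, n = 3 for each mean).

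**Figure D5:**
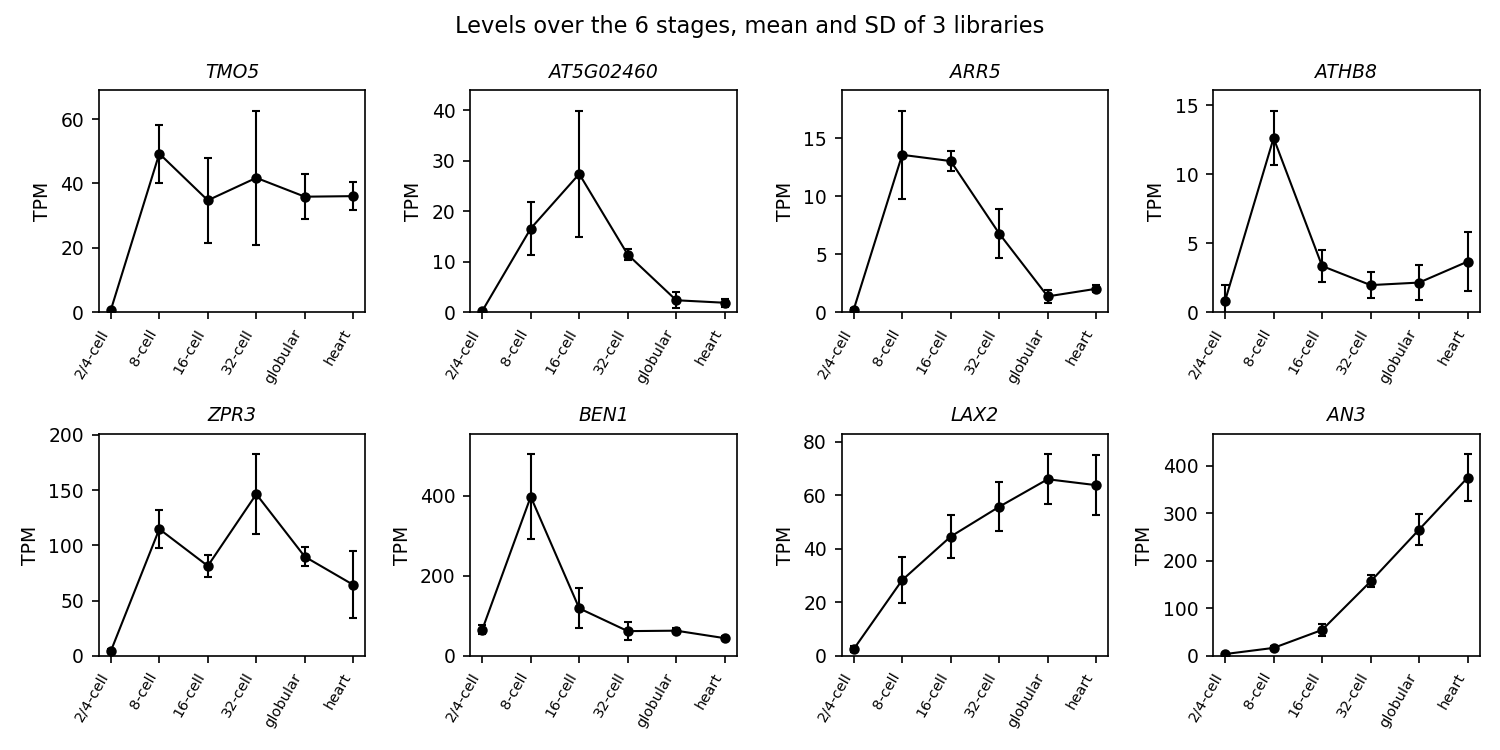
TPM (mean and SD of 3 libraries) of 8 genes called higher at 8-cell, over the 6 stages in order of development, each axis starting at 0. ATHB8 and BEN1 are highest at 8-cell, ARR5 and AT5G02460 are high at 8-cell and 16-cell, and LAX2 and AN3 reach higher levels at later stages.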

How the data were processed

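Embryos of 6 stages were profiled in 18 libraries, 3 per stage, which were grouped by the stage in their labels. Reads were trimmed with Trim Galore 0.6.6 and quantified with kallisto 0.44.0, with TAIR10 as the build, per the submitters' processing notes; the authors deposited TPM per gene as a single table. The way from transcripts to genes is not given in the sources used here. Each column sums to 1000000 TPM, so depth and counting error are unknown. Of 27564 identifiers, 27445 matched the annotation of TAIR10.1, which served for names only.

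Genes at 1 TPM in at least 3 of the 18 libraries, 18338 in all, were fitted with limma 3.58.1 in R 4.3.3 on log2(TPM + 1), with 1 mean and 1 weight per stage, a variance trend, a moderated two-sided test and Benjamini-Hochberg adjustment over all 18338 genes. The fit was tested on simulated data. Exact tests of 3 against 3 cannot give a p under 0.1 and were not used.

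The genes compared, the 19 gene lists and the rule for naming genes were chosen with earlier results of these data known, and 3 lists were added after the values were seen. The rule takes the 15 largest rises and 8 largest falls (called, named, at 10 TPM on average and without overlap), any member of 8 regulator lists, called and abundant members of the others, newly detected genes with a symbol and the most abundant surrounding-tissue markers. Alternatives were other pseudocounts, filters, scalings and weights, a replicate block, and each library left out.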

Additional observations from a re-analysis of the deposited data

How the results depend on the processing

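Of 110 genes called among the 399 named or listed, 60 kept their call without each of the 6 libraries in turn and 50 lost it without at least 1 (37 without 2/4-cell replicate 2), and 33 kept it with only the stages compared in the fit. Over all 399, most of them never called, 272 of 7118 recalculations lost and 74 gained a call, for the alternatives run. A change of sign was counted only where either fit called the gene, and 0 were found. Sign changes of genes called in neither fit were not counted. The 193 rises became 691 with equal weights for all libraries and 25 with only the stages compared in the fit; leaving out 1 library at a time gave 89 to 216, lowest without 2/4-cell replicate 2. The 360 falls became 917 with equal weights, 42 with only the stages compared, 222 with a filter of 5 TPM, 541 with no filter and 143 with a pseudocount of 0.1; with 1 library left out they numbered 157 to 345, lowest without 2/4-cell replicate 3. The 22 rises in the embryo lists became 43 with equal weights, 8 with only the stages compared and 12 to 22 with 1 library left out, and their 2 falls became 17 with equal weights and 1 to 4 with 1 library left out. The 24 falls in the surrounding-tissue lists became 5 with only the stages compared and 13 to 21 with 1 library left out. The 15 newly detected genes became 4 at a minimum of 10 TPM and 16 to 34 with 1 library left out, where fewer libraries have to pass. The other causes were not tested. Library weights gave 235 rises and 357 falls, of which 189 and 339 were shared with the fit reported. With a block for the replicate number, 223 genes rose, 415 fell and 4 embryo-list genes fell. The labels do not say that the numbers pair the libraries: deviations of same-numbered libraries correlated at 0.139, 0.072 and 0.04, and 3 of 3 8-cell libraries correlated best with their own number. The depth behind the TPM is unknown, and the low values of a stage cannot be given a detection limit.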
